A study of Drosophila melanogaster with 16 samples.

Results

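The comparison described here set the heads of ethanol-exposed flies against the heads of flies that were never exposed. Its members are 9 of the 16 arrays of the series, chosen by their titles: 7 arrays of ethanol-exposed males and the 2 arrays named Unexposed A and B. Male Drosophila melanogaster of a Berlin strain, 2 to 4 days old, were kept for 30 min in a stream of ethanol vapor (3.7 L/min, a 60% dilution of saturated vapor) at 25 °C. They were frozen straight away (0 min) or after recovery of 30, 60, 90 and 120 min, or 180 and 210 min, with 1 array for each time. Each ethanol array holds head RNA of 3 pools of 200 flies joined before extraction, and the unexposed arrays come from 2 independent groups that received no treatment at all. The labels name no mutant allele or transgene. The ethanol flies were therefore handled, placed in tubes and given an air stream as well as ethanol, so the difference from unexposed heads contains all of these. The other 7 arrays of the series, from flies given humidified air alone at the same times, are quoted beside the results.

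Ethanol reaches flies through the tracheae and the olfactory organs. The antenna carries olfactory neurons, which express odorant receptors with the co-receptor Orco, and support cells, which secrete odorant-binding proteins and odorant-degrading enzymes into the fluid around the neurons. Ethanol itself is oxidised to acetaldehyde and acetate, which feeds lipid synthesis, and cytochrome P450s, glutathione S-transferases and heat shock proteins are classes of genes that answer chemical stress in insects.

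Values are log2 expression values per probe set, and genes under log2 4 on 8 or all of the 9 arrays were not tested, which left 8018 genes or unnamed probe sets. Array medians lay between 2.88 and 2.98, and 44.7% to 45.1% of probe sets reached log2 4. Unexposed A and B differed by at least 1 log2 unit in 5 of the 8018 genes, with a median absolute difference of 0.142. Each array is 1 pool of its own time, so the p-values measure the spread between arrays and times, not between repeated pools of a time. In whole heads, fewer cells of a type and less RNA per cell cannot be told apart.

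Head markers were present: the 15 photoreceptor genes measured averaged 11.96 to 12.16 log2 on the ethanol arrays and 12.10 and 12.03 on Unexposed A and B. Of the 9 ethanol and unexposed arrays, 2 ethanol arrays stood apart. On the 120 min array 12 of 30 male reproductive tract genes and 12 of 36 gut genes reached log2 4 (mean 4.32 and 4.05), against 1 and 3 on each of the other 8. The gut protease gene Jon65Aiv read 7.84 there against at most 1.96 on the other 8. The sex peptide gene SP, a defining accessory gland marker, read 2.58 against at most 2.16, still within the background range of log2 2 to 3. On the 210 min array the yolk protein genes Yp1 and Yp2, which are female products of fat body and ovary, read 8.87 and 7.46, against at most 2.35 and 2.52 on the other 8, and Yp3 read 10.11 against 7.68 to 8.002. These values go against the male label, while the eggshell genes Cp36 and Vm26Aa and the yolk receptor gene yl stayed at 2.44, 2.07 and 2.18, their background level. The air arrays at 0, 60 and 120 min held body-tissue transcripts, as the 120 min ethanol array did. Mean air levels below are therefore those of the other 4 air arrays (30, 90, 180 and 210 min). Fitted air minus unexposed differences use all 7. Single air arrays are named by their time.

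Taken over all 7 recovery times, 23 of 8018 genes differed between ethanol and unexposed heads (0.287%, limma with Benjamini-Hochberg adjustment, adjusted p below 0.05), 6 higher (0.0748%) and 17 lower (0.212%), and 776 had an unadjusted p below 0.05. A gene was tested even where only the 2 unexposed arrays reached log2 4, a choice that favours falls. Of the 23 genes, 8 had at least 1 ethanol array under log2 4, and a filter at log2 6 gave 5 higher and 9 lower calls. Of the 23, 14 have a single gene symbol. The 10 named falls were the antennal genes Obp84a, a5, Os-C, Obp69a and a10, the esterase gene Jhedup, the glutathione S-transferase gene GstE4, and brat, Amun and RSG7. The named rises were Nmdmc, CG15282, chinmo and TwdlT. All 7 ethanol arrays lay above both unexposed arrays in 7.83% of all genes tested and below both in 2.27%.

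a5 (probe set 1628647_at; chromosome 2L, 1329161 to 1329993, Release 6), a small phosphatidylethanolamine-binding protein of the antenna, read 8.25 and 8.48 log2 in unexposed heads and, over the 7 ethanol arrays, 5.45 at the lowest, 5.94 at the median and 6.54 at the highest. No ethanol array came within 1 log2 unit of either unexposed array. The difference was -2.39 log2 units (SE 0.24, adjusted p = 0.00297). When 1 array was left out it ranged from -2.51 to -2.28, and the call was lost without Unexposed A and without Unexposed B. Obp84a (probe set 1630963_at; 3R, 7250725 to 7251957), an odorant-binding protein gene, read 6.20 and 6.14 in unexposed heads against 2.67, 3.59 and 4.64 as the lowest, median and highest ethanol values. It fell by 2.57 (SE 0.39, adjusted p = 0.0302), and all ethanol values except that at 0 min were under log2 4, the level set by the filter. Os-C, a secreted protein of the olfactory segment of the antenna, read 10.43 and 10.51 in unexposed heads and 7.46, 8.32 and 8.83 as the lowest, median and highest after ethanol, a difference of -2.20 (SE 0.30, adjusted p = 0.0235).

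Obp69a, of the same binding protein family as Obp84a, fell by 1.85 (SE 0.30, adjusted p = 0.0429), from 9.80 and 9.79 to between 7.28 and 8.66. a10, which codes for a chemosensory protein, fell by 1.70 (SE 0.23, adjusted p = 0.0235), from 10.30 and 10.25 to between 7.86 and 8.92. For each of these 5 antennal genes every ethanol array stood below both unexposed arrays. On the 4 air arrays quoted, the mean levels were 8.66 for a5, 6.21 for Obp84a, 10.57 for Os-C, 9.94 for Obp69a and 10.40 for a10, each within 0.3 log2 units of the unexposed mean. The air array at 0 min, 1 of the 3 with body-tissue transcripts, was lower: a5 read 7.32, Obp84a 4.76 and Os-C 9.31 there, below both unexposed arrays and above the ethanol array of the same time. Air and ethanol are both compared here with the same 2 unexposed arrays.

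Both enzyme genes fell by more than 2 log2 units. GstE4 (probe set 1632539_at; 2R, 18403248 to 18404086), a glutathione S-transferase of the epsilon class, read 8.19 and 8.20 in unexposed heads and 5.53, 5.80 and 6.38 as the lowest, median and highest values after ethanol, a difference of -2.25 (SE 0.20, adjusted p = 0.00118). Its adjusted p ranged from 0.000837 to 0.0613 when 1 array was left out, missing 0.05 without Unexposed B only. Jhedup, an esterase gene that arose by duplication of the juvenile hormone esterase gene, read 9.30 and 9.27 in unexposed heads and between 6.48 and 7.72 after ethanol. The difference was -2.10 (SE 0.31, adjusted p = 0.0272). On the 4 air arrays GstE4 averaged 8.33 and Jhedup 9.49, close to the unexposed values, and GstE4 read 7.16 on the air array at 0 min. Epsilon-class transferases lie side by side on 2R and resemble each other in sequence, and whether probes of one also bind transcripts of another was not tested.

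**Figure D1:**
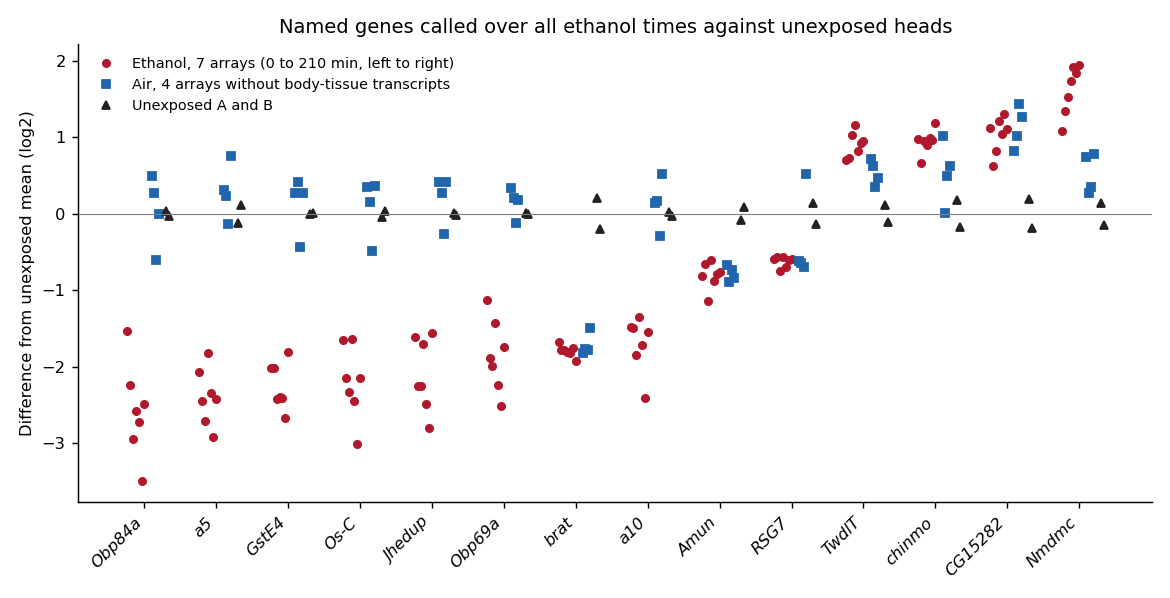
Difference from the mean of the 2 unexposed arrays (log2, vertical axis) for the 14 named genes called over all times; circles are the 7 ethanol arrays in order of recovery time, squares the 4 air arrays without body-tissue transcripts and triangles Unexposed A and B. The air squares of Obp84a, a5, GstE4, Os-C, Jhedup, Obp69a and a10 lie around 0 while their ethanol circles lie below -1; for brat, Amun and CG15282 air and ethanol lie together.

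For another group of called genes the air arrays had moved as far as the ethanol arrays. brat (probe set 1639217_s_at; 2L, 19133816 to 19179758), a translational repressor gene, read 4.93 and 4.53 in unexposed heads and between 2.81 and 3.05 after ethanol, a difference of -1.80 (SE 0.11, adjusted p = 5.88e-05). The ethanol values lie at the background level of the arrays, around log2 2 to 3, and brat was tested only because the 2 unexposed arrays reached log2 4, so neither the size nor the small spread is that of a measured level. It averaged 3.01 on the 4 air arrays (air minus unexposed, 7 air arrays, -1.75, adjusted p = 6.41e-08). The adjusted p lay between 0.000256 and 0.00202 in the 9 fits that left out 1 array, with the same limit. Amun read 10.02 and 10.19 in unexposed heads, 8.97 to 9.51 after ethanol and 9.32 on average after air (ethanol minus unexposed -0.81, SE 0.13, adjusted p = 0.0429; air minus unexposed -0.78, adjusted p = 0.0182). CG15282 read 8.24 and 7.86 in unexposed heads, 8.68 to 9.36 after ethanol and 9.19 on average after air (ethanol 1.04, SE 0.17, adjusted p = 0.0493; air 0.99, adjusted p = 0.082). Of 8018 genes, 7 passed the test of air against unexposed heads (0.0873%).

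Nmdmc (probe set 1640775_a_at; 3R, 9042508 to 9050555) codes for the mitochondrial enzyme that interconverts folate-bound one-carbon units. It read 9.27 and 8.99 in unexposed heads and 10.22, 10.48, 10.66, 10.88, 11.06, 10.98 and 11.09 at the 7 ethanol times in order, a rise of 1.63 (SE 0.22, adjusted p = 0.0235). The 0 min array was the lowest and the 3 arrays from 120 min on the highest, and the late minus early difference was 0.69 (adjusted p = 0.0185). The 4 air arrays averaged 9.67, above both unexposed arrays and below each ethanol array. The annotated span of Nmdmc contains Rel (3R, 9044183 to 9047977), so signal of the overlapping genes may not be fully separate. chinmo, a zinc finger gene of neuronal timing, rose by 0.95 (SE 0.13, adjusted p = 0.0235). TwdlT, a Tweedle cuticle protein gene, rose by 0.91 (SE 0.13, adjusted p = 0.0272), the only 1 of 18 cuticle genes called, against 0.287% of all genes. Their 4 air arrays averaged 0.54 above the unexposed mean in both cases. RSG7, a regulator of G-protein signalling, read 4.48 and 4.21 in unexposed heads and 3.59 to 3.78 after ethanol, a difference of -0.62 (SE 0.09, adjusted p = 0.0302). It too was tested only because the 2 unexposed arrays reached log2 4, a choice that favours a fall.

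The number of genes called over all times depended on single arrays. It was 72 without the 0 min array, 14, 7 and 13 without the 30, 60 and 90 min arrays, 5 without the 120 min array, 8 without the 210 min array, 5 without Unexposed A and 2 without Unexposed B. Without both the 120 and 210 min arrays 5 genes were called, 3 of the 14 named ones among them: brat (-1.76, adjusted p = 0.0018), GstE4 (-2.30, adjusted p = 0.00441) and a5 (-2.40, adjusted p = 0.0445).

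Genes that change for only part of the recovery are spread out in a mean over all times, so the ethanol arrays were also fitted in 3 windows against the same 2 unexposed arrays: early (0 and 30 min), middle (60 and 90 min) and late (120, 180 and 210 min). The early window gave 28 calls (0.349% of 8018; 20 higher or 0.249%, 8 lower or 0.0998%; 956 at unadjusted p below 0.05), the middle window 140 (1.75%; 99 higher or 1.23%, 41 lower or 0.511%; 1347) and the late window 264 (3.29%; 147 higher or 1.83%, 117 lower or 1.46%; 1337). The windows share their control arrays and hold unequal numbers of ethanol arrays, so their counts are not a measure of how much the response grew. The late minus early contrast called 554 genes (6.91%). Single ethanol arrays stood at least 1 log2 unit above both unexposed arrays in 39 genes at 0 min (0.486%), 0.798% at 30 min, 0.923% at 60 min, 88 genes at 90 min (1.1%), 0.811% at 120 min, 0.711% at 180 min and 1.02% at 210 min. They stood as far below in 26 genes at 0 min (0.324%), 0.299% at 30 min, 0.761% at 60 min, 0.599% at 90 min, 0.898% at 120 min, 85 genes at 180 min (1.06%) and 0.624% at 210 min.

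**Figure D2:**
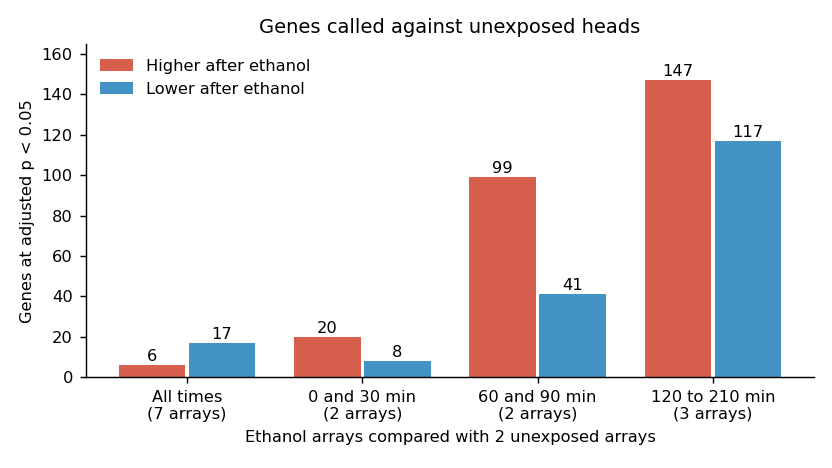
Number of genes at adjusted p below 0.05 (vertical axis) against unexposed heads over all times and in the 3 windows; red bars count genes higher and blue bars genes lower after ethanol. The late window holds 147 higher and 117 lower genes, and the fit over all times 6 and 17.

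In the early window, right after exposure, genes for transcription factors and for an amine-synthesis enzyme stood far above unexposed heads. sug (sugarbabe; probe set 1624195_at; 2R, 12924567 to 12930644), a zinc finger factor known to respond to dietary sugar, read 7.65 and 7.51 in unexposed heads and 10.31 and 10.44 on the early ethanol arrays. It stood at 8.41 and 8.10 in the middle window and at 6.06, 6.27 and 6.76 in the late window, below both unexposed arrays. The early rise was 2.79 (SE 0.21, adjusted p = 0.000644), the late difference -1.22 (SE 0.19, adjusted p = 0.0142) and the late minus early difference -4.01 (adjusted p = 6.57e-05), while the 4 air arrays averaged 7.94.

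cbt (cabut), a zinc finger factor gene of the immediate early type, read 11.00 and 10.94 in unexposed heads and 13.24 and 13.01 on the early ethanol arrays, a rise of 2.15 (SE 0.14, adjusted p = 0.000644). It was still 0.71 above in the middle window (adjusted p = 0.0462) and read 10.67 to 10.87 in the late window. Tdc1, the tyrosine decarboxylase gene that acts mainly outside the nervous system, read 6.56 and 6.49 in unexposed heads, 8.83 and 8.60 on the early arrays and 6.75 to 6.92 on the late ones. Its early rise was 2.19 (SE 0.15, adjusted p = 0.000644), and the 4 air arrays averaged 6.71. Pino, a gene of odour-guided behaviour, rose by 1.41 early (SE 0.14, adjusted p = 0.00307) and stood 0.23 above unexposed heads late.

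CG15673 and CG13116 followed the same course. CG15673 read 6.13 and 6.09 in unexposed heads, 8.09 and 8.34 early and 5.90 to 6.41 late (early rise 2.10, SE 0.18, adjusted p = 0.0016). CG13116 read 8.11 on both unexposed arrays, 9.86 and 10.01 early and 8.03 to 8.25 late (early rise 1.82, SE 0.16, adjusted p = 0.00175). For sug, cbt, Tdc1, Pino, CG15673 and CG13116 the late minus early difference passed the test, with differences from -1.18 (Pino) to -4.01 (sug).

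**Figure D3:**
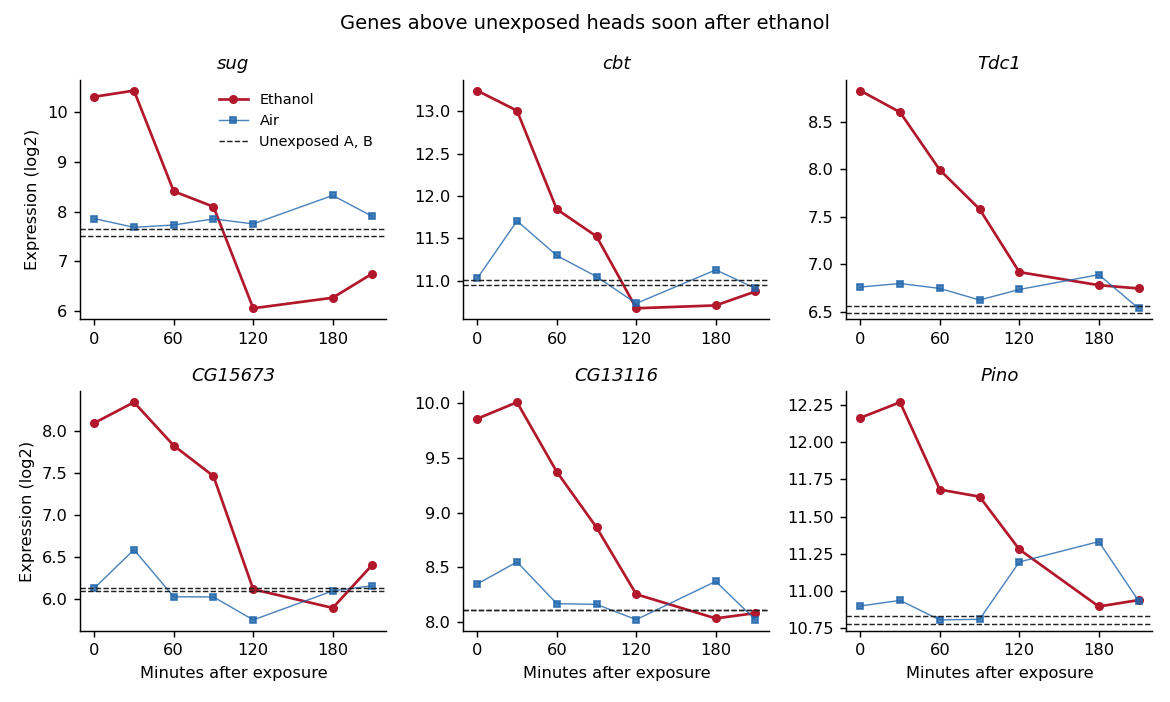
Expression (log2, vertical axes, each on its own scale) against minutes after exposure for 6 genes raised in the early window; red circles are ethanol arrays, blue squares air arrays, 1 per time, and dashed lines Unexposed A and B. Each gene is at or near its maximum at 0 and 30 min after ethanol and within 0.5 log2 units of the dashed lines from 120 min on, except sug, which ends below them.

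Of the early rises, CG34134 and pirk also stood well above unexposed heads in air. CG34134 read 8.46 and 8.03 in unexposed heads and 10.76 and 10.43 early after ethanol, a rise of 2.35 (SE 0.18, adjusted p = 0.000644), and its 4 air arrays averaged 10.05. Air against unexposed gave 1.84 (adjusted p = 0.0374) for the gene. pirk, which codes for a negative regulator of the Imd immune pathway, read 5.92 and 5.10 in unexposed heads and 7.54 and 7.43 early (rise 1.97, SE 0.24, adjusted p = 0.01), with 6.83 on average on the 4 air arrays; the fit of all 7 air arrays gave 1.25 (adjusted p = 0.177). Early rises of under 1 log2 unit included Acsx3, an acyl-CoA synthetase gene (0.84), Ugt36A1, a glycosyltransferase gene (0.93), and Hpd, a tyrosine breakdown enzyme gene (0.71). Others were Idgf1, a chitinase-like growth factor gene (0.74), and TwdlT (0.72). Ugt36A1 was the only 1 of 15 tested in its family to be called, against 0.349% of all genes. Acsx3 averaged 0.41 above the unexposed mean on the 4 air arrays. At 30 min it read 11.42 in air and 11.49 after ethanol. When 1 array was left out, Acsx3 kept its call in 6 of 9 fits, Ugt36A1 in 2, Idgf1 in 1, and Hpd and TwdlT in 0.

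The named early falls were GstE4 (-2.02, adjusted p = 0.00812), a5 (-2.26, adjusted p = 0.0164), Os-C (-1.90, adjusted p = 0.049) and brat (-1.73, adjusted p = 0.000937). These genes were already low on the array taken at the end of exposure: at 0 min a5 read 6.30, Os-C 8.82 and GstE4 6.18. The air array at 0 min was also below unexposed heads, with a mean of 7.74 over the 13 antennal markers against 7.41 on the ethanol array at 0 min and 8.57 and 8.65 in unexposed heads. Of the 13 antennal markers 2 were called early, 7 with arrays shifted to the same median, and 0 without the 30 min array or without either unexposed array. The early calls numbered 18 without the 30 min array, 12 without Unexposed A and 9 without Unexposed B, and sug, cbt, Tdc1, CG15673, CG13116 and CG34134 kept adjusted p below 0.05 in all 9 fits that left out 1 array, as did brat at its background level. The median difference of all 8018 genes was 0.08 in this window and -0.04 when the arrays were shifted to the same median, a scaling that gave 16 higher and 20 lower calls and ended those of Acsx3, Ugt36A1, Hpd, Idgf1 and TwdlT; quantile normalization gave 17 higher and 12 lower.

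In the middle window the named rises ranged from jhamt and CG9733, by nearly 3 log2 units, to Pepck1, a phosphoenolpyruvate carboxykinase gene (0.63). jhamt (probe set 1628177_at; 2L, 16365903 to 16367039), the methyltransferase gene of the last steps of juvenile hormone synthesis, read 5.34 and 5.28 in unexposed heads and 8.003 and 8.51 at 60 and 90 min. It read 7.20 at 0 min, 7.51 at 120 min and 5.65 and 5.81 at 180 and 210 min. The middle rise was 2.95 (SE 0.52, adjusted p = 0.0363), against 5.78 on average in air. Of 6 juvenile hormone genes tested, jhamt was called higher in this window and Jhedup lower (-1.98, adjusted p = 0.0429), against 1.23% and 0.511% of all genes.

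CG9733 rose by 2.93 (SE 0.41, adjusted p = 0.0176), from 6.27 and 5.63 to 8.21 and 9.54. Its 4 air arrays averaged 7.38, above both unexposed arrays. CG15745 read 7.11 and 7.12 in unexposed heads and 9.89 and 9.80 in this window, a rise of 2.73 (SE 0.42, adjusted p = 0.0252). Drat, an oxidoreductase-like gene, read 12.19 and 12.04 in unexposed heads and 14.12 and 13.84 at 60 and 90 min, rising by 1.87 (SE 0.36, adjusted p = 0.044), with 12.15 on average in air.

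Of 9 activity-regulated genes tested, 5 were higher in the middle window, against 1.23% of all genes called higher there, and none was lower. They were Arc2, a capsid-like gene (1.29, adjusted p = 0.0246), Atf3 (1.01, adjusted p = 0.0445), the EGR-family gene sr (0.86, adjusted p = 0.0278), cbt (0.71) and the Jun gene Jra (0.66, adjusted p = 0.0292). For Arc2 the 4 air arrays also lay above both unexposed arrays, on average 0.43 above the unexposed mean. The median difference over the 9 was 0.75 against -0.01 for all genes. Hr38, the nuclear receptor gene most used as an activity marker in insects, read 6.92 and 6.79 in unexposed heads and 7.18, 8.83, 9.86, 9.12, 8.19, 6.60 and 6.97 over the ethanol times. It differed by 2.64 in this window without passing the test (SE 0.59, adjusted p = 0.0643), and its air arrays read 8.06 at 30 min and 7.96 at 90 min. With the arrays shifted to the same median the count of called activity-regulated genes was 3, 3 without the 180 min array, 2 without the 60 or the 210 min array, and 0 without the 90 min array, Unexposed A or Unexposed B.

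Among lipid genes Agpat2, an acyltransferase gene of phosphatidic acid synthesis, rose by 1.78 in the middle window (adjusted p = 0.017), from 7.76 and 7.57 to 9.31 and 9.58, and Lpin, the phosphatidate phosphatase gene, by 0.67 (adjusted p = 0.0386). 2 of 19 lipid genes were called higher and none lower, against 1.23% and 0.511% of all genes. Men, the malic enzyme gene, which supplies NADPH for fatty acid synthesis, read 12.08 and 12.07 in unexposed heads and 12.20, 12.58, 12.97, 13.33, 13.37, 12.998 and 13.06 over the ethanol times, 1.08 higher in the middle window (adjusted p = 0.0309) and 1.07 higher in the late window (adjusted p = 0.0127). Its 4 air arrays averaged 12.10, the unexposed level. It was the only 1 of 8 acetate and acetyl-CoA genes called, against 1.75% of all genes in the middle and 3.29% in the late window. AcCoAS, the acetyl-CoA synthetase gene, read 12.43 on both unexposed arrays and 12.46 to 13.55 after ethanol, above them on all 7 arrays without passing the test in a window or over all times (middle difference 1.0001, adjusted p = 0.104).

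Of 16 amino acid response genes, 3 were higher in the middle window, against 1.23% of all genes, and none lower: Nmdmc (1.63, adjusted p = 0.00307), the asparagine synthetase gene AsnS (1.42, adjusted p = 0.0252) and aay, the phosphoserine phosphatase gene of serine synthesis (0.78, adjusted p = 0.0429). Rel, the NF-kappaB factor gene of the Imd pathway, rose by 1.34 (adjusted p = 0.0153), from 9.65 and 9.56 to 10.82 and 11.07, with 10.22 on average in air. cact, the inhibitor gene of the Toll pathway, rose by 0.79 (adjusted p = 0.0386) and pirk by 1.96 (adjusted p = 0.0107), while none of 18 immune effector genes was called in this window. Gclc, the gene for the catalytic subunit of glutathione synthesis, rose by 0.84 (adjusted p = 0.0121), and was the only 1 of 15 antioxidant genes called there. Of all genes 1.75% were called in this window.

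phu, which had the largest named middle fall after Obp84a, read 8.19 and 8.16 in unexposed heads and 5.85 and 5.01 at 60 and 90 min, and was back at 7.57, 8.37 and 8.86 in the late window (middle difference -2.75, SE 0.46, adjusted p = 0.0301). Obp84a fell by 2.77 in this window (adjusted p = 0.0107), GstE4 by 2.41 (adjusted p = 0.00411) and a5 by 2.27 (adjusted p = 0.0134). The middle values of Obp84a were under log2 4, so the size of its fall and its rank against phu are not exact. Os-C fell by 1.99 (adjusted p = 0.0252) and Orco by 0.96 (adjusted p = 0.0402). All ethanol values of Orco were under log2 4, and it was tested only because the 2 unexposed arrays reached that level. The middle count was 267 without the 0 min array, 267 without the 30 min array, 47, 22, 231, 81 and 78 without the 60, 90, 120, 180 and 210 min arrays, and 6 without either unexposed array. Of 50 named calls, 5 held without Unexposed A, 4 without Unexposed B, and Nmdmc, CG34134 and brat, the last at its background level, in all 9 such fits. Shifting the arrays to the same median gave 74 higher and 70 lower calls in place of 99 and 41. It ended the middle calls of Atf3, Jra, cbt, Lpin, aay, cact, Pepck1, Pepck2, Hsp26 and Cyp12e1.

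In the late window the antennal genes were low as a group. Of the 13 antennal markers, 12 were called lower, against 1.46% of all genes, and none higher, with a median difference of -2.15 against 0.03 for all genes. Of 23 odorant-binding protein genes tested, 7 were called lower and none higher (median -0.30), and all 7 are among the 12. Orco was tested only because the 2 unexposed arrays reached log2 4, so its fall adds nothing to the count. The list was chosen with earlier results of these data known.

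Obp59a, an odorant-binding protein gene of the hygrosensory sensilla, read 6.51 and 6.58 in unexposed heads and 3.04, 2.54 and 4.76 at 120, 180 and 210 min, a fitted difference of -3.10 (SE 0.57, adjusted p = 0.0244) whose size is not exact, since the values at 120 and 180 min lie at background. Obp84a fell by 2.91 (adjusted p = 0.00388), but its late values were under log2 4 and that at 180 min at background, so this size is not exact. a5 fell by 2.56 (adjusted p = 0.00388), Os-C by 2.54 (adjusted p = 0.0041), Obp83b by 2.25 (adjusted p = 0.00889) and Obp69a by 2.17 (adjusted p = 0.00716). Obp19a fell by 2.15 (adjusted p = 0.0126), lush, an alcohol- and pheromone-binding member of the family, by 2.14 (adjusted p = 0.00685), a10 by 1.89 (adjusted p = 0.00692) and Obp28a by 1.66 (adjusted p = 0.0156).

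Orco read 4.67 and 4.41 in unexposed heads and 3.28, 2.77 and 3.11 in the late window, a fitted difference of -1.48 (adjusted p = 0.0041). All its ethanol values were under log2 4 and the late ones at background, so this size is not exact either. Antdh, an antennal short-chain dehydrogenase gene, fell by 1.29 (adjusted p = 0.0213). Snmp1, a pheromone-sensing membrane protein gene, was the 1 antennal marker not called: it read 7.001 and 7.28 in unexposed heads and 6.75 to 7.01 over the 7 ethanol arrays. Of the 13 markers, 12 had all 7 ethanol arrays below both unexposed arrays, Orco with its limit among them, against 2.27% of all genes.

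The depth of the antennal fall differed among the ethanol arrays. The 13 markers averaged 8.57 and 8.65 on the unexposed arrays, 7.41 at the highest and 6.13 at the lowest on the 5 ethanol arrays that did not stand apart, and 6.64 and 6.96 on the 120 and 210 min arrays. On the 4 air arrays quoted they averaged 8.26 to 8.99, and on the air arrays at 0, 60 and 120 min 7.74, 8.37 and 8.95. For Os-C the ethanol values in order of time were 8.82, 8.33, 8.14, 8.83, 8.01, 7.46 and 8.32, and for lush 7.59, 6.58, 7.06, 7.55, 6.46, 6.35 and 6.71. The 180 min array gave the lowest value for each of these genes, and the 90 min array a value close to that at 0 min. The late minus early difference passed the test for Orco (-0.65, adjusted p = 0.0484) and for none of the other 12 markers. Both sides of this Orco contrast lie under log2 4, the late values at background, so no deeper fall is read from it. Among other cells of the head, 0 of 15 photoreceptor genes were called (late differences from -0.14 to 0.28). None of 8 neuron genes was called, with wider late differences, from -1.04 to 0.47 (median -0.24). Of 14 glial genes 1 was called, the GABA transporter gene Gat (-0.59, adjusted p = 0.0156). Late calls made up 3.29% of all genes, so lists of these sizes would hold few or no calls.

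**Figure D4:**
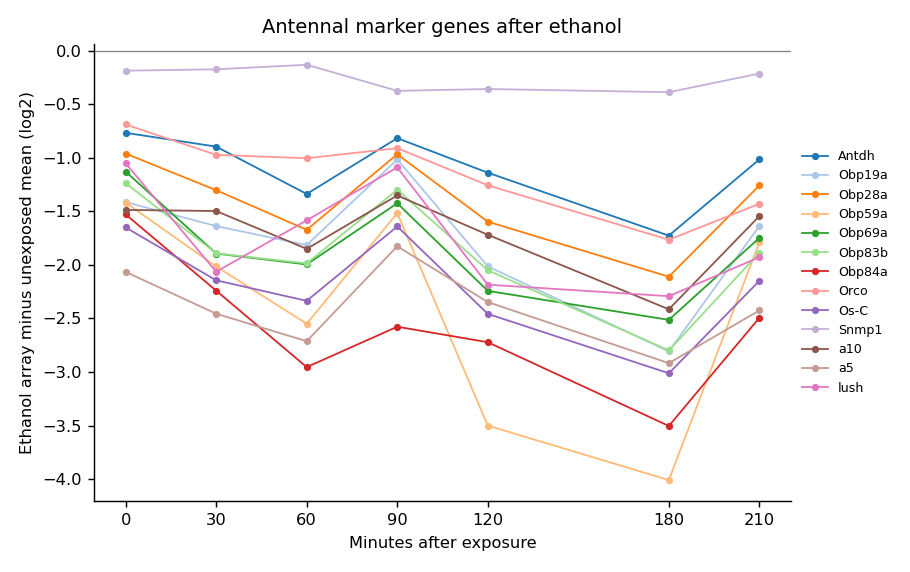
Ethanol array minus the mean of the 2 unexposed arrays (log2, vertical axis) against minutes after exposure for the 13 antennal marker genes, 1 line per gene. All lines except that of Snmp1 lie below -0.5 at every time, and Obp59a reaches about -4 at 180 min.

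The late count of antennal calls was 11 without the 120 min array, 12 without the 210 min array and 11 without both. It was 3 without Unexposed A, 0 without Unexposed B and 0 when no filter on low values was used, with median differences of -2.18, -2.13 and -2.15. Over the whole table the late count was 109 without the 180 min array, 139 without the 210 min array, 93 without both the 120 and 210 min arrays, 37 without Unexposed A and 3 without Unexposed B.

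Late rises included storage protein and metabolic enzyme genes. Nmdmc was 1.91 higher (SE 0.13, adjusted p = 0.000529) and was called in all 9 fits that left out 1 array, as was brat (-1.84, adjusted p = 0.000529) at its background level. Lsp2 (probe set 1641634_at; 3L, 12129393 to 12131869), a storage protein gene of the fat body, read 9.01 and 9.21 in unexposed heads and 10.60, 11.81 and 12.36 at 120, 180 and 210 min, a rise of 2.48 (SE 0.41, adjusted p = 0.0158). Gnmt, the glycine N-methyltransferase gene that uses up S-adenosylmethionine, read 9.15 and 9.20 in unexposed heads, 8.35 at 60 min and 10.51, 11.93 and 12.37 in the late window, a rise of 2.43 (SE 0.49, adjusted p = 0.0341).

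Pepck2, a phosphoenolpyruvate carboxykinase gene, rose by 1.55 (SE 0.17, adjusted p = 0.0041), from 8.85 and 8.73 to 10.06, 10.33 and 10.64. The 3 genes Lsp2, Gnmt and Pepck2 had their highest value on the 210 min array, which holds the yolk protein transcripts. Head fat body markers, yolk proteins included, averaged 10.49 on that array, 8.83 on the 120 min array, 8.91 to 9.18 on the other ethanol arrays and 8.87 and 8.90 in unexposed heads. Without the 210 min array the rises were 2.10 for Lsp2 (adjusted p = 0.0273), 2.05 for Gnmt (adjusted p = 0.0833) and 1.40 for Pepck2 (adjusted p = 0.00835). Without both the 120 and 210 min arrays, which leaves 180 min alone in the window, they were 2.70, 2.75 and 1.54. A single array gives no spread of its own.

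fit, a secreted satiety signal gene, read 9.34 and 9.35 in unexposed heads, 9.82 and 9.69 early and 8.22, 8.16 and 8.63 late, a late difference of -1.01 (SE 0.15, adjusted p = 0.0126). sxe2, a lipase-like gene, fell by 0.59 (adjusted p = 0.0244). Of 8 head fat body genes tested, 1 was higher and 2 were lower in the late window, against 1.83% and 1.46% of all genes. The air arrays at 120, 180 and 210 min read 8.17, 8.12 and 8.63 for fit, the ethanol level, although all 7 air arrays against unexposed did not pass the test (-0.53, adjusted p = 1).

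Of 13 heat shock genes tested, 3 were higher in the late window, against 1.83% of all genes, and none lower. Hsp68, an inducible chaperone gene, read 5.62 and 5.73 in unexposed heads and 5.88, 5.78, 6.22, 7.01, 7.67, 6.94 and 7.50 over the ethanol times, 1.70 higher late (SE 0.25, adjusted p = 0.0123). The small heat shock protein gene Hsp27 (3L, 9384063 to 9385694) rose by 1.65 (SE 0.18, adjusted p = 0.0041), from 6.41 and 6.21 to 7.85, 7.80 and 8.23. Its neighbour Hsp26 (3L, 9376418 to 9377427) rose by 1.54 (SE 0.15, adjusted p = 0.00329), from 7.03 and 6.86 to 8.52, 8.26 and 8.68, and was already 0.94 higher in the middle window (adjusted p = 0.0363). The late minus early difference passed for Hsp68 (1.54, adjusted p = 0.0137), Hsp26 (1.19, adjusted p = 0.00541) and Hsp27 (0.94, adjusted p = 0.0204), so these genes stood higher 120 to 210 min after the exposure than at its end. On the 4 air arrays they averaged 5.83, 7.26 and 6.80. l(2)efl, a small heat shock gene outside the list, rose by 0.71 late (adjusted p = 0.0192). The list had 2 calls without Unexposed A, 0 without Unexposed B, 2 without both the 120 and 210 min arrays and 1 with no filter on low values.

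Glutathione S-transferase genes moved both ways. GstD2 read 6.32 and 6.04 in unexposed heads and 6.46, 6.38, 7.19, 7.86, 7.96, 8.20 and 8.30 over the ethanol times, 1.98 higher late (SE 0.20, adjusted p = 0.00329). GstE7 (2R, 18406924 to 18407688), which lies near GstE4, read 9.27 and 9.22 in unexposed heads and 9.61 to 11.61 after ethanol. It was 1.86 higher in the middle window (adjusted p = 0.0498) and 1.77 higher late (adjusted p = 0.029). GstE4 was 2.30 lower late (adjusted p = 0.00239) and GstZ2, a zeta-class gene, 0.83 lower (adjusted p = 0.0113). Of 28 transferase genes tested, 2 were higher and 2 lower in the late window, against 1.83% and 1.46% of all genes, with a median difference of 0.06. GstE7 averaged 9.66 and GstD2 6.63 on the 4 air arrays. Trxr1, the thioredoxin reductase gene, rose by 0.64 late (adjusted p = 0.0222).

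**Figure D5:**
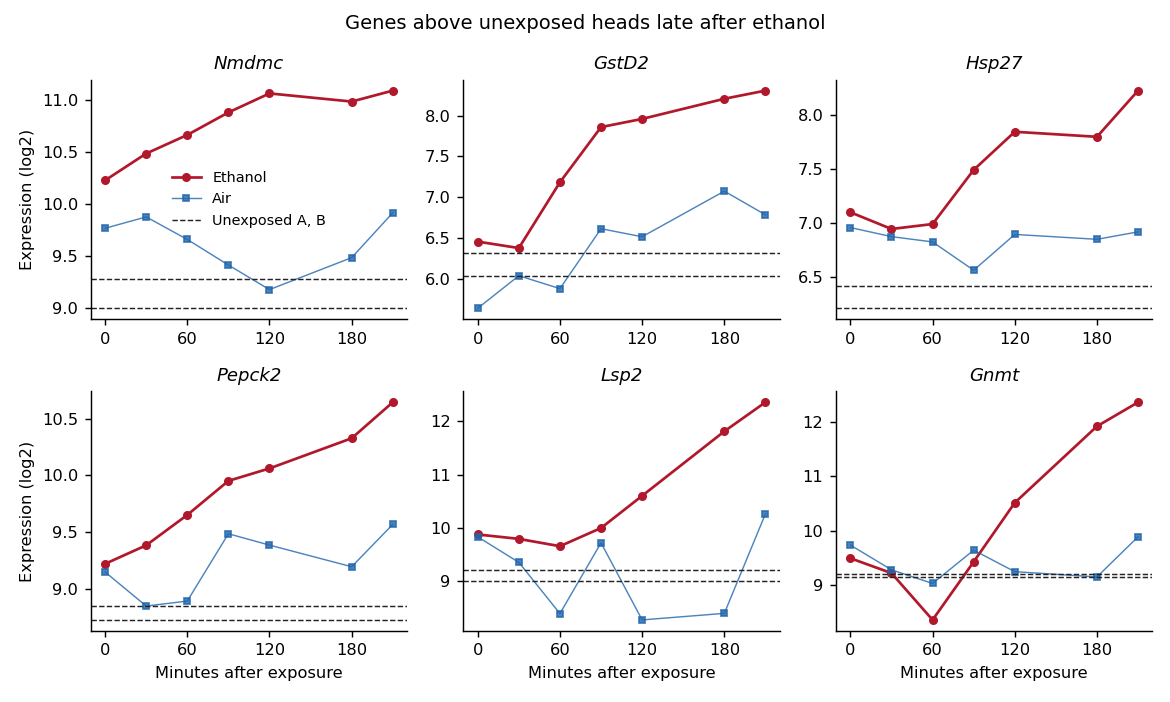
Expression (log2, vertical axes, each on its own scale) against minutes after exposure for 6 genes raised in the late window; red circles are ethanol arrays, blue squares air arrays, 1 per time, and dashed lines Unexposed A and B. Nmdmc stands above both dashed lines at every time, GstD2, Hsp27 and Pepck2 are higher from 120 min on than at 0 and 30 min, and Lsp2 and Gnmt reach their highest values at 180 and 210 min.

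Of 50 cytochrome P450 genes tested, 3 were higher and 7 lower in the late window, against 1.83% and 1.46% of all genes. The falls were Cyp6t1 (-1.10, adjusted p = 0.0105), Cyp4d21 (-0.89, adjusted p = 0.0138), Cyp4ac1 (-0.81, adjusted p = 0.0219), Cyp4d20 (-0.67, adjusted p = 0.0244), Cyp12a4 (-0.62, adjusted p = 0.0224), Cyp6g1 (-0.61, adjusted p = 0.038) and Cyp12e1 (-0.56, adjusted p = 0.0238). The rises were Cyp4p1 (0.91, adjusted p = 0.0276), Cyp6d5 (0.57, adjusted p = 0.0299) and Cyp9b2 (0.54, adjusted p = 0.0477). Cyp6t1 read 8.12 and 8.04 in unexposed heads and 8.42 at 0 min, 7.07, 6.84 and 7.03 late, so the 0 min array lay above both unexposed arrays and the late arrays below. The split was 1 higher and 8 lower with arrays shifted to the same median, 0 and 3 without the 210 min array, 1 and 1 without the 180 min array, and 0 and 0 without either unexposed array or with no filter on low values.

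Single genes of other kinds were also lower late. Ass, the argininosuccinate synthetase gene, read 6.46 and 6.27 in unexposed heads and 6.83 at 0 min, then 5.92, 5.63, 5.33, 4.97, 4.32 and 4.93, a late difference of -1.62 (SE 0.28, adjusted p = 0.0187). Acsx2, an acyl-CoA synthetase gene, read 7.05 and 7.20 in unexposed heads and 5.07, 4.07 and 5.78 late, a difference of -2.15 (SE 0.41, adjusted p = 0.0283), while its chromosomal neighbour Acsx3 was 0.84 higher early. Pcyt2, a gene of phosphatidylethanolamine synthesis, fell by 1.01 (adjusted p = 0.0226). CNMa, a neuropeptide gene, read 6.36 and 6.22 in unexposed heads and 4.38 to 4.47 late, a difference of -1.86 (SE 0.25, adjusted p = 0.00803), with 5.21 on average in air.

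In the same window CG9733 was 3.09 higher (SE 0.37, adjusted p = 0.00617), CG4269 2.18 (adjusted p = 0.0079) and CG34265 1.99 (adjusted p = 0.00634), and the 4 air arrays of these 3 genes averaged 1.43, 1.18 and 0.86 above the unexposed mean. Of 18 immune effector genes, the Bomanin peptide genes BomBc3 (1.28, adjusted p = 0.0244) and BomS2 (0.63, adjusted p = 0.0398) were higher and none was lower, against 1.83% and 1.46% of all genes. Without the 210 min array neither kept its call (adjusted p = 0.0661 and 0.116). Drs, the antifungal peptide gene Drosomycin, differed by 0.24 (adjusted p = 0.864). Irk1, an inward rectifier potassium channel gene and the only 1 of 19 ion channel genes called, rose by 0.83 (adjusted p = 0.0123). Obsc was the only 1 of 19 muscle genes called (0.67, adjusted p = 0.0294), and Pxn, the peroxidasin gene, the only 1 of 13 hemocyte genes (0.63, adjusted p = 0.0122). Of all genes 3.29% were called late. The late calls of Obsc, Pxn, Trxr1, l(2)efl, BomS2, Cyp6d5 and Cyp9b2 ended when the arrays were shifted to the same median.

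None of the measured genes on a list of ethanol behaviour genes passed the test. None of 22 such genes was called in any window or over all times (differences over all times from -0.57 to 0.76). Of all genes, 0.287% were called over all times and 0.349%, 1.75% and 3.29% in the early, middle and late windows. At those shares a list of this size would hold few or no calls. hang, a zinc finger gene required for normal ethanol tolerance, read 8.17 and 8.08 in unexposed heads and 8.35 to 8.77 after ethanol, above both on all 7 arrays without passing (late difference 0.50, adjusted p = 0.0747). slo, the BK potassium channel gene, read 8.76 and 8.52 in unexposed heads and 8.71 to 9.18 after ethanol (0.31 over all times, adjusted p = 0.508). Arc1, which is on the activity-regulated list and not on this one, read 12.53 and 12.45 in unexposed heads and 12.77 to 13.05 after ethanol. It differed by 0.44 over all times (adjusted p = 0.136), and its 4 air arrays averaged 0.27 above the unexposed mean. puc, the JNK phosphatase gene, also outside the ethanol behaviour list, read 10.65 and 10.28 at 30 and 60 min against 9.36 and 9.16 in unexposed heads (early difference 1.01, adjusted p = 0.15). The Fos gene kay differed by 0.03 over all times, a sign that turned with either scaling.

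None of 11 clock genes was called against unexposed heads in any window or over all times. The shares of all genes called were 0.349% to 3.29% in the windows and 0.287% over all times. Late minus early, tim rose by 0.66 (adjusted p = 0.0157) and per by 0.73 (adjusted p = 0.0459), and vri fell by 0.79 (adjusted p = 0.0325). tim read 11.83 and 11.65 in unexposed heads and 11.02 and 11.09 early, 11.59, 11.89 and 11.66 late. Clk, Pdp1 and cry differed by -0.24, -0.50 and -0.10 over all times, with adjusted p from 0.501 to 0.942. The time of day at which unexposed flies were frozen is not given in the labels, so for these genes time of day and exposure cannot be told apart.

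Housekeeping groups stayed near the unexposed level. Of all genes, 0.287% were called over all times and 0.349% to 3.29% in the windows. Over all times no call was made among 33 ribosomal protein genes (differences from -0.06 to 0.26), 69 mitochondrial ribosomal protein genes (-0.15 to 0.23), 50 oxidative phosphorylation genes (-0.15 to 0.19) or 26 proteasome genes (-0.11 to 0.20), and the same held in each window.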

How the data were processed

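The authors deposited log2 values from Affymetrix Drosophila 2.0 arrays, made with GCRMA (version not given), per the submitters' processing notes. GCRMA adjusts background by probe sequence and quantile normalizes the arrays, so a change in total RNA per head cannot be seen, and values around log2 2 to 3 are its background level. Of 18952 probe sets 183 controls were left out. By Entrez ID, looked up in RefSeq (Release 6 positions), 13647 probe sets had 1 symbol, 402 several and 4720 none; the last 2 kinds were tested unnamed. Of several probe sets for a gene the one with the highest mean over the 9 arrays was used (777 of the kept genes). Filtering at log2 4 in at least 2 of the 9 arrays kept 8018 of 17105, of which 7022 are named.

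limma 3.58.1 in R 4.3.3 (lmFit, eBayes, Benjamini-Hochberg over all 8018, threshold 0.05) fitted 7 ethanol against 2 unexposed arrays, and a model of 4 groups (unexposed, early, middle, late) for the windows and late minus early. Air minus unexposed came from 3 groups over all 16 arrays. Tables and figures used Python 3.11.15, pandas 2.3.3, numpy 2.4.6 and matplotlib 3.10.9. On simulated data of 8018 genes, 2-fold changes were recovered at 82% over all times and 80%, 83% and 86% in the early, middle and late windows, none with the wrong sign. Of the simulated calls 6.28%, 5.85%, 5.82% and 4.12% were false, in the same order. The simulated noise was independent for each gene and array, and every ethanol array in a comparison got the same shift. Effects of whole arrays, a time course and a background level were not simulated, so these shares do not measure recovery in the real arrays.

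Named genes were the 12 largest called rises and falls over all times with all 7 ethanol arrays on 1 side of both unexposed arrays, the 5 largest called rises and falls per window, up to 3 called members of each list over all times, and a chosen group of further genes, such as slo, hang, per and Hr38 (51 genes in all); another 52 were chosen after their values were seen. The comparison and the gene lists were chosen with earlier results of these data known. Alternatives covered filters, scaling, probe sets, variance models, thresholds, samples in the fit and arrays left out; leaving out the 120 and 210 min arrays together was added after seeing the data. Array number limits the precision.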

Additional observations from a re-analysis of the deposited data

Results flagged for a closer look

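The late and early differences from unexposed heads, which share the unexposed arrays, were compared by the contrast of late against early ethanol arrays, and 50 named genes differed (limma, adjusted p below 0.05). This contrast called 554 of 8018 genes (6.91%). The 103 named genes were chosen in part for their differences in these windows, and 52 of them after their values were seen. Their count of 50 therefore cannot be set against that share. Genes lower late than early, by late minus early log2 difference, were sug (-4.01), cbt (-2.37), CG15673 (-2.07), Tdc1 (-1.9), CG13116 (-1.81), Pino (-1.18), CG34134 (-1.02), pirk (-0.935), bmm (-0.851), sr (-0.565), Pepck1 (-0.556), Acsx3 (-0.497) and Jra (-0.404). Of the same direction were the metabolic genes Ass (-1.63), GstZ2 (-1.56), Cyp4ac1 (-1.3), Cyp6t1 (-1.22), Pcyt2 (-1.18), Hpd (-0.951), Cyp6g1 (-0.734), Cyp4d21 (-0.719), Cyp12a4 (-0.637) and Cyp4d20 (-0.546), and fit (-1.42), CNMa (-1.22), Gat (-0.779), Orco (-0.653), sxe2 (-0.603) and vri (-0.794).

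Higher late than early were Gnmt (2.26), CG9733 (2.03), Sid (1.87), Lsp2 (1.75), CG4269 (1.74), GstD2 (1.73), Hsp68 (1.54), BomBc3 (1.47), Hsp26 (1.19), CG34265 (1.16), Pepck2 (1.04), Hsp27 (0.938), Obsc (0.913), Pxn (0.815), Men (0.752), l(2)efl (0.732), per (0.726), Nmdmc (0.689), tim (0.657), BomS2 (0.552) and Cyp6d5 (0.537). Recovery time and time of day cannot be told apart in this contrast.

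Yolk protein genes on the 210 min array, and reproductive tract and gut genes on the 120 min array, stood above both unexposed arrays. On the 210 min array Yp1 read 8.875 and Yp2 7.457 log2. Yp3, which was expressed on all 9 arrays and tested without being called, read 10.11 there against 7.68 to 8.002 on the other 8. On the 120 min array Acp53Ea read 4.329 and Jon65Aiv 7.836, while SP, at 2.579, stayed within the background range of log2 2 to 3. Their part in the late differences was not tested beyond leaving out these arrays.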

How the results depend on the processing

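No paired analysis was possible because the unexposed arrays have no recovery time and share no pairing with the ethanol arrays. Against 23 genes called over all times, 10 were called with no filter on low values, 14 with a filter at log2 6, 95 with array weights, 38 at adjusted p below 0.10, 72 in a fit of all 16 arrays, 75 with minutes as a linear term and 5 without the 120 and 210 min arrays. Early, against 28, the counts were 8 with no filter, 72 with trend and robust variances, 14 with array weights, 90 at adjusted p below 0.10 and 49 in all 16 arrays. In the middle window, against 140, they were 22, 220, 327, 376 and 288 in that order. Late, against 264, they were 27 with no filter, 540 with array weights, 516 at adjusted p below 0.10 and 93 without the 120 and 210 min arrays. Leaving out 1 array gave 2 to 72 calls over all times, 9 to 31 early, 6 to 267 in the middle window and 3 to 358 late; without an unexposed array, the other is assumed to vary like the ethanol arrays. Scaling to the same median split the late calls into 86 higher and 150 lower, and quantile normalization into 148 and 183. For the middle window quantile normalization gave 98 and 62. Among the 103 named genes, no called difference changed sign under an alternative run. The cause of these changes was not tested, other than that fewer arrays leave fewer degrees of freedom. With 2 unexposed arrays, calls depend on their spread.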
